A study of Homo sapiens with 24 samples.

Results

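The 10 genes examined here encode the 5 subunits of NF-κB (NFKB1, NFKB2, REL, RELA, and RELB) and 5 proteins that act on it as inhibitors or nuclear cofactors (NFKBIA, NFKBIE, NFKBIZ, TNFAIP3, and BCL3). They were chosen by name among 20098 protein-coding genes of GENCODE 44 on hg19 (GRCh37), and all 10 were found. For each gene, peaks of Flag ChIP-seq were taken when the summit lay in the gene body or within 50 kb of it. The cells were MCF-10A, a nontransformed human breast epithelial line, carrying ER-Src, in which v-Src is kept under the control of an estrogen receptor hormone-binding region. Each line also carried a retroviral transgene, so that S100A8 or S100A9 was expressed with a C-terminal Flag tag beside the endogenous protein. There were 5 libraries of S100A8-Flag (2 in EtOH, 3 in TAM) and 6 of S100A9-Flag (3 in each treatment), where TAM is 24 hours in 1 μM 4-hydroxytamoxifen, which activates ER-Src, and EtOH is the ethanol vehicle. All groups share the cell line and ER-Src, and no library without a Flag-tagged protein was used here. The labels number the replicates, and the study's methods call them biological. Whether they came from separate cultures is not given in the sources used here, and the p values below measure the spread between these libraries.

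NF-κB proteins bind DNA as dimers that are formed by the Rel homology domain. RELA, REL, and RELB carry an activation domain, whereas NFKB1 and NFKB2 encode the precursors p105 and p100, which are processed to the DNA binding subunits p50 and p52. NFKBIA (IκBα) and NFKBIE (IκBε) hold dimers in the cytoplasm until IκB kinase marks them for degradation. Both genes are NF-κB targets, so that their products close a negative feedback loop, as does TNFAIP3 (A20), a ubiquitin-editing enzyme that acts on the signaling proteins upstream of IκB kinase. NFKBIZ (IκBζ) and BCL3 are nuclear members of the IκB family that bind p50 or p52 dimers on chromatin. NF-κB is part of the inflammatory network on which transformation of these cells depends, and S100A8 and S100A9 are calcium-binding cytokines that lack a DNA binding domain of their own.

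Most of these genes carried an exact match to the NF-κB consensus within 100 bp of the summit of an S100A8/A9 site in their own promoter. A selection of these stretches is shown because, of the 8 consensus sequences searched, this one differed most in share between the promoter sites of these genes and those of all genes. Each line gives the match in capitals with 10 bases on either side, read from GRCh37 on the strand named, 5′ to 3′.
NFKB1, chr4:103422457-103422486, plus strand: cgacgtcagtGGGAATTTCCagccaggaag
NFKB2, chr10:104155276-104155305, plus strand: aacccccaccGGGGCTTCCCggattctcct
REL, chr2:61108652-61108681, plus strand: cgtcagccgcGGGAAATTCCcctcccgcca
RELB, chr19:45504581-45504610, plus strand: gtgacgcgtgGGGGTTTTCCcgttccccag
NFKBIA, chr14:35874017-35874046, plus strand: gtcaggctcgGGGAATTTCCaagccagtca
NFKBIZ, chr3:101568109-101568138, plus strand: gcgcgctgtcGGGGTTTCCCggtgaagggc
TNFAIP3, chr6:138188319-138188348, minus strand: ggatttccacGGGACTTTCCaaagtcacgt
TNFAIP3, chr6:138188331-138188360, minus strand: ttgtaggcccGGGGATTTCCacgggacttt
BCL3 (upstream site), chr19:45248712-45248741, plus strand: tgtgggagctGGGACTTTCCtgagagcaga

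The first 8 lines belong to sites in a promoter of the gene named, and the last to a site at -3227 bp relative to the nearest BCL3 transcription start site (TSS), which is counted as distal. The match of REL can be read on both strands, 1 bp apart. The matches in NFKB1 and NFKBIA have the same 10 bases, as do the first of the TNFAIP3 matches and that of BCL3. No match was found within 100 bp of the summit at the promoter site of RELA.

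The lists are peaks that MACS2 called in each library against its own input. Here, a peak is called when its q value is at most 1e-07, and weaker peaks in the deposited lists reach a q value of 0.05. The number of called peaks over the genome was between 1853 and 4609 in the EtOH libraries and between 21518 and 40735 in the TAM libraries. No read numbers are given in the lists, and sequencing depth, which is unknown here, and binding strength cannot be told apart where a peak is not called. A check of the labels used the coding exons of the introduced genes. All 6 S100A9-Flag libraries had 2 peaks there for S100A9, against 0 in 4 of 5 S100A8-Flag libraries and 1 in S100A8-Flag TAM replicate 1, whereas S100A8 had 0 in every library and gives no check.

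The 10 genes had 9 and 13 called peaks in the EtOH libraries of S100A8-Flag and 60, 44, and 39 in its TAM libraries. For S100A9-Flag they had 6, 3, and 9 peaks in EtOH and 42, 42, and 66 in TAM. Every TAM library lay above every EtOH library for both proteins. The means were 11 ± 2.83 (SD, n = 2) and 47.7 ± 11 (n = 3) for S100A8-Flag, and 6 ± 3 (n = 3) and 50 ± 13.9 (n = 3) for S100A9-Flag. The difference of mean log2(peaks + 1) between TAM and EtOH was 2.47 over both proteins, with p = 0.01 by an exact permutation test of the library labels within each protein (two-sided), the smallest value that its 200 arrangements allow. Within 1 protein the difference was 2.02 for S100A8-Flag (exact permutation p = 0.2) and 2.93 for S100A9-Flag (exact permutation p = 0.1), each the smallest p that the design can give.

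Set against all called peaks of a library, the 10 genes showed no such rise. As a share of the called peaks of a library, the 10 genes held 0.208% and 0.2821% for S100A8-Flag in EtOH and 0.2042%, 0.1824%, and 0.1812% in TAM. For S100A9-Flag they held 0.1669%, 0.1619%, and 0.1958% in EtOH and 0.1647%, 0.175%, and 0.162% in TAM. The highest share was in S100A8-Flag EtOH replicate 2, and EtOH and TAM libraries overlapped. The difference of mean log2 share was -0.21 (exact permutation p = 0.11, two-sided). With every deposited peak in place of those called, the difference of log2 share was -0.43 (exact permutation p = 0.03), and with genes assigned by a TSS within 50 kb or by the gene body it was -0.32 (exact permutation p = 0.01). Other assignments brought it closer to 0, with -0.12 for windows of 10 kb (exact permutation p = 0.56), -0.032 for windows of 100 kb (exact permutation p = 0.78), and -0.012 when the nearest TSS had to be that of the gene (exact permutation p = 0.92). At a q value of at most 1e-10 it was -0.64 (exact permutation p = 0.11).

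Each library was also reduced to its 1853 strongest peaks by q value, the number in the smallest library. On this basis the 10 genes had 6 and 8 peaks in EtOH against 3, 4, and 3 in TAM for S100A8-Flag, and 1, 3, and 6 in EtOH against 5, 4, and 2 in TAM for S100A9-Flag. The difference of mean log2(peaks + 1) was then -0.33 (exact permutation p = 0.4), and the number of genes with a promoter peak differed by 0.0833 (exact permutation p = 1).

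**Figure D1:**
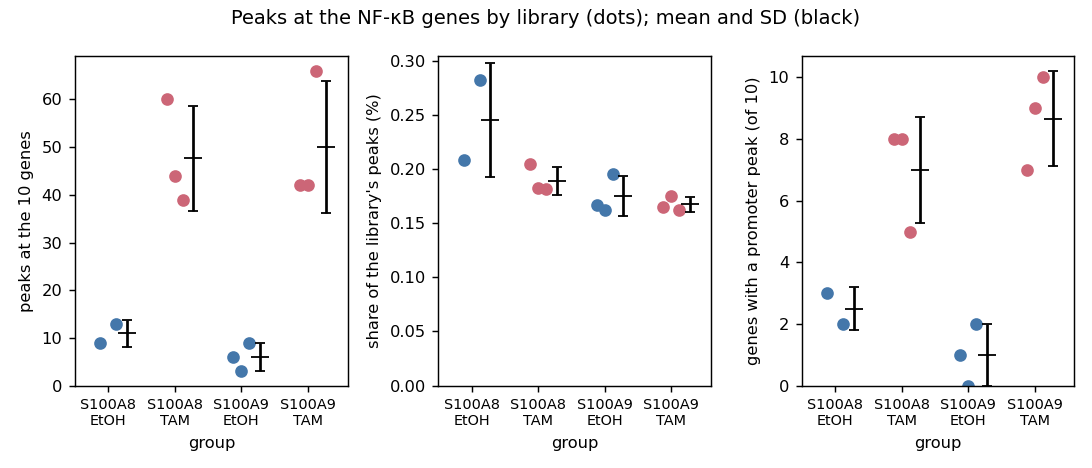
Called peaks at the 10 NF-κB genes (left), their share of all called peaks of the library in percent (middle), and the number of the 10 genes with a called promoter peak (right), for each of 11 libraries (dots: blue, EtOH; red, TAM) with the mean and SD of each group in black. The peak number of TAM libraries (39 to 66) lies above that of EtOH libraries (3 to 13), whereas the shares overlap.

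Each gene was then tested on its own among the 18126 genes with a peak in at least 2 libraries. All 10 genes had more peaks in TAM at an adjusted p of at most 0.05 (exact permutation within each protein, Benjamini-Hochberg over all genes tested), where 67.6% of all genes tested were called higher and 0 lower. The count therefore sets these genes little apart from the rest. Their median difference of log2(peaks + 1) was 1.66, beside 1.39 over all genes tested. Every TAM library lay above every EtOH library at 5 of the 10 genes (REL, RELB, NFKBIA, NFKBIE, and BCL3), beside 40.2% of all genes tested. With the gene's share of the library's peaks as the value, 0 of the 10 genes and 0% of all genes passed, and 3 of the 10 had an unadjusted p of at most 0.05, as did 4109 of all 18126 genes. Because no single gene can reach a p below 0.01, a gene passes the adjustment only when many genes change together. The number of the 10 genes called was between 5 and 7 when any 1 library was left out, and 0 when the libraries were reduced to equal numbers of peaks.

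**Figure D2:**
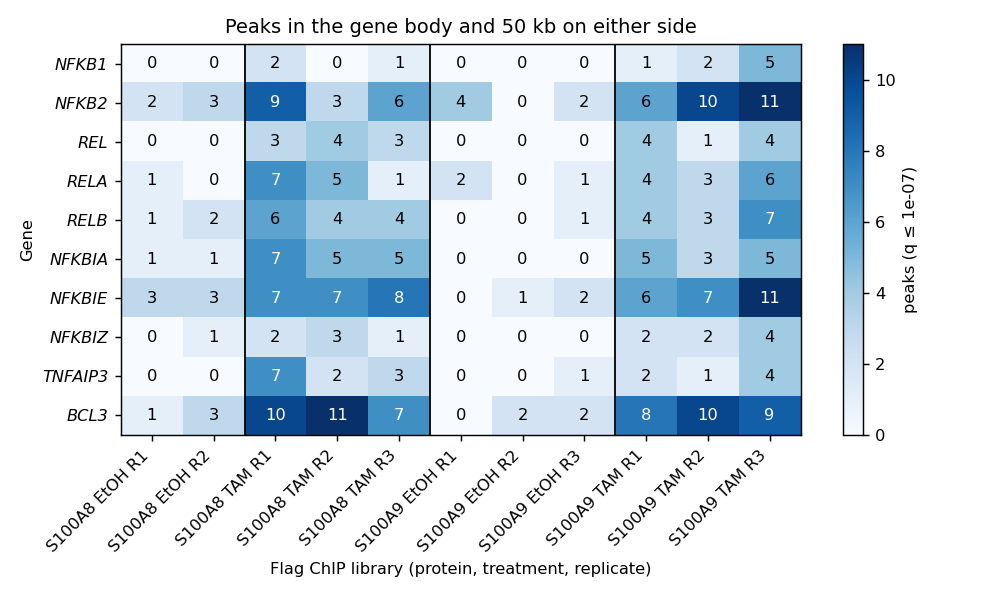
Called peaks in the gene body and 50 kb on either side for each of the 10 genes (rows) and 11 libraries (columns, R for replicate), with the number printed in each cell. The EtOH columns hold at most 4 peaks per gene, and NFKB2, NFKBIE, and BCL3 have the highest numbers in TAM, up to 11.

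Among the subunits, NFKB2, the precursor of p52, had the most peaks. It had 2 and 3 peaks in EtOH against 9, 3, and 6 in TAM for S100A8-Flag, and 4, 0, and 2 in EtOH and 6, 10, and 11 in TAM for S100A9-Flag, so that EtOH and TAM libraries overlapped. Its difference of log2(peaks + 1) was 1.45 (adjusted p = 0.0352, exact permutation test as above). NFKB1, the precursor of p50 and the longest gene of the 10, had 0 peaks in all 5 EtOH libraries. In TAM it had 2, 0, and 1 peaks for S100A8-Flag and 1, 2, and 5 for S100A9-Flag, so that 1 TAM library was also at 0. Its difference was 1.29 (adjusted p = 0.0443, exact permutation test), the smallest of the 10 genes. REL, which encodes c-Rel, likewise had 0 peaks in every EtOH library, but 3, 4, and 3 for S100A8-Flag and 4, 1, and 4 for S100A9-Flag in TAM. It was peak-bearing in all TAM libraries and in no EtOH library, with a difference of 1.99 (adjusted p = 0.0219, exact permutation test). A window with no EtOH peak was found for 2 of the 10 genes, beside 32.3% of all genes, and 9 of the 10 had a peak in all 6 TAM libraries, beside 64.5%.

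RELA, the p65 subunit with the main activation domain, had 1 and 0 peaks in EtOH against 7, 5, and 1 in TAM for S100A8-Flag. For S100A9-Flag it had 2, 0, and 1 in EtOH and 4, 3, and 6 in TAM. S100A8-Flag TAM replicate 3 was as low as EtOH libraries, and the difference was 1.6 (adjusted p = 0.0352, exact permutation test). RELB, the partner of p52 in the noncanonical pathway, had 1 and 2 peaks in EtOH against 6, 4, and 4 in TAM for S100A8-Flag, and 0, 0, and 1 in EtOH and 4, 3, and 7 in TAM for S100A9-Flag. The EtOH and TAM libraries of RELB did not overlap, and the difference was 1.65 (adjusted p = 0.0219, exact permutation test).

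Among the inhibitors, NFKBIA (IκBα) had the largest difference of the 10 genes, 2.06 (adjusted p = 0.0219, exact permutation test). It had 1 peak in each EtOH library and 7, 5, and 5 in TAM for S100A8-Flag, and 0 peaks in each EtOH library and 5, 3, and 5 in TAM for S100A9-Flag. NFKBIE (IκBε) had 3 and 3 peaks in EtOH against 7, 7, and 8 in TAM for S100A8-Flag, and 0, 1, and 2 in EtOH and 6, 7, and 11 in TAM for S100A9-Flag. The groups did not overlap at either IκB gene, and the difference at NFKBIE was 1.66 (adjusted p = 0.0219, exact permutation test).

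BCL3, the coactivator of p50 and p52 dimers, had 1 and 3 peaks in EtOH against 10, 11, and 7 in TAM for S100A8-Flag, and 0, 2, and 2 in EtOH and 8, 10, and 9 in TAM for S100A9-Flag. All TAM libraries were well above the EtOH libraries, with a difference of 2.05 (adjusted p = 0.0219, exact permutation test). NFKBIZ (IκBζ), its nuclear relative, had far fewer, with 0 and 1 peaks in EtOH against 2, 3, and 1 in TAM for S100A8-Flag. For S100A9-Flag it had 0 in each EtOH library and 2, 2, and 4 in TAM, with a difference of 1.43 (adjusted p = 0.0352, exact permutation test). TNFAIP3 (A20) had 0 peaks in both EtOH libraries and 7, 2, and 3 in TAM for S100A8-Flag, and 0, 0, and 1 in EtOH and 2, 1, and 4 in TAM for S100A9-Flag. NFKBIZ and TNFAIP3 each had 1 peak in an EtOH library and 1 in a TAM library, so that their groups touched, and the difference at TNFAIP3 was 1.75 (adjusted p = 0.0352, exact permutation test).

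The windows differ in length, and the genes were therefore also set side by side as TAM peaks per 100 kb. On this scale BCL3 had 8.16, NFKBIE 7.12, and NFKB2 6.92, followed by NFKBIA with 4.82, RELA with 3.96, RELB with 3.41, TNFAIP3 with 2.73, REL with 2.11, NFKBIZ with 1.75, and NFKB1 with 0.849. BCL3, NFKBIE, and NFKB2 had mean peak numbers of 9.17 ± 1.47, 7.67 ± 1.75, and 7.5 ± 3.02 (SD, n = 6), with overlapping libraries, and REL (3.17 ± 1.17) and TNFAIP3 (3.17 ± 2.14) had the same mean. Among all genes, the mean peak number in TAM was at the 96.4th percentile for BCL3 and at the 34.9th for NFKB1.

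Within a treatment, the libraries are too few for a difference between S100A8-Flag and S100A9-Flag to pass the threshold of 0.05 in an exact permutation test. The difference of mean log2(peaks + 1), S100A9-Flag minus S100A8-Flag, was 0.058 in TAM (exact permutation p = 0.7, smallest possible 0.1) and -0.86 in EtOH (exact permutation p = 0.4, smallest possible 0.2). The TAM libraries of the 2 proteins overlapped at all 10 genes, and 5.08% of all genes tested did not overlap. As a share of the library's peaks, the 3 S100A8-Flag TAM libraries lay above the 3 of S100A9-Flag, with a difference of -0.18 in mean log2 share (exact permutation p = 0.1, the smallest possible). The effect of TAM was 0.91 higher for S100A9-Flag on the log2 scale (exact permutation p = 0.14).

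A promoter peak, with its summit at most 1500 bp before or 250 bp after a TSS, was found at 3 and 2 of the 10 genes for S100A8-Flag in EtOH and at 8, 8, and 5 in TAM. For S100A9-Flag it was found at 1, 0, and 2 genes in EtOH and at 7, 9, and 10 in TAM. No EtOH library reached the lowest TAM library, and the mean number of genes was 6.08 higher in TAM (exact permutation p = 0.01, the smallest possible, two-sided). The difference was 4.5 genes for S100A8-Flag (exact permutation p = 0.2) and 7.67 for S100A9-Flag (exact permutation p = 0.1), and these differed by 3.17 genes (exact permutation p = 0.08).

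All 10 genes had a promoter peak in at least 1 TAM library, beside 60.6% of all genes, and 5 in at least 1 EtOH library, beside 29%. In at least 2 replicates, which need not have it at the same place, S100A9-Flag in TAM had a promoter peak at all 10 genes (43% of all genes) and S100A8-Flag in TAM at 8, all but RELB and NFKBIE (36.7%). S100A8-Flag in EtOH had one at RELB and NFKBIA (4.61%), and S100A9-Flag in EtOH at 0 of the 10 genes (5.69%). NFKBIA and TNFAIP3 had a promoter peak in all 6 TAM libraries, as did 13.9% of all genes.

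Peaks were next merged into sites. A site is a region with called peaks in at least 2 replicates of a condition, and sites of the 4 conditions were merged where they overlapped. Of 30322 such sites in the genome, 56 lay at the 10 genes. Over all libraries, 268 of the 333 called peaks at the 10 genes lay in sites. S100A8-Flag TAM replicate 1 had 42 such peaks and called 39 of the sites, so peak numbers are not numbers of sites. Of the 56 sites, 13 were in a promoter of the gene itself, 14 were in the promoter of another gene of the window, and 29 were distal. Promoters of any gene thus held 48.2% of the sites, beside 31.1% over the genome. Every window holds a promoter by its definition, and the effect of this choice of windows on the share was not tested. BCL3 had 9 sites, NFKBIE 11, and NFKB2 10, whereas NFKB1 and TNFAIP3 had 2 each. The neighbors with a promoter site were PSD and CUEDC2 for NFKB2, MAP3K11 with PCNX3 and KAT5 for RELA, CLPTM1, ZNF296, and GEMIN7 with MARK4 for RELB, HSP90AB1 and AARS2 for NFKBIE, NXPE3 for NFKBIZ, and CBLC for BCL3. A peak in a window cannot be assigned to 1 of its genes from these lists.

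**Figure D3:**
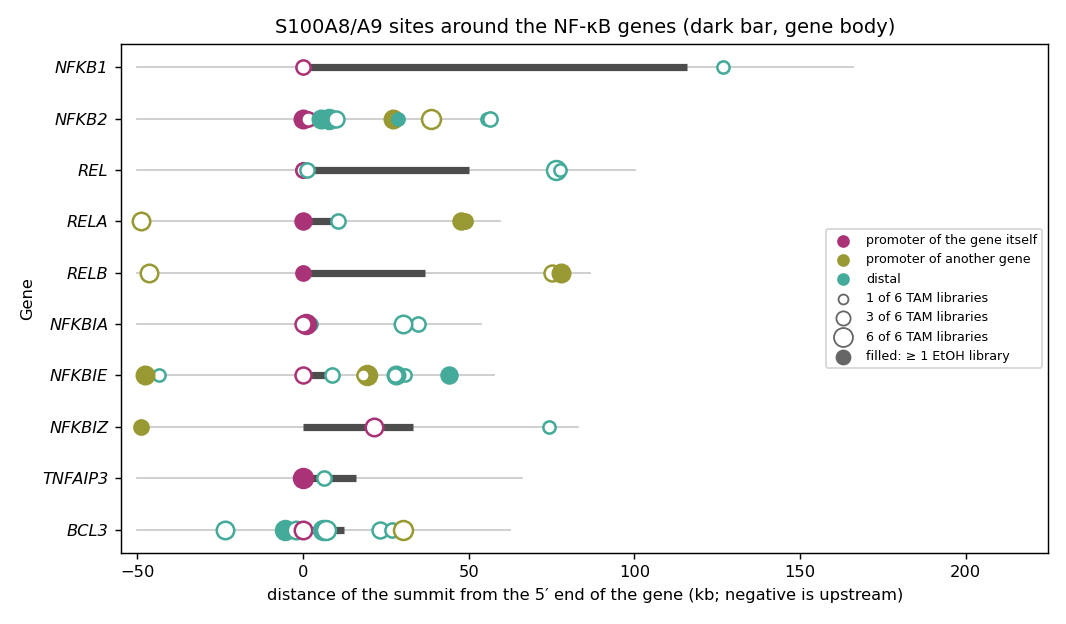
The 56 sites by the distance of the summit from the 5′ end of the gene in kb (negative is upstream), with the gene body as a dark bar and the window as a gray line. Circle area grows with the number of the 6 TAM libraries that called the site, filled circles were called in at least 1 EtOH library, and color gives the class. All 10 genes have a site at a promoter of their own, which lies farthest into the gene body at NFKBIZ, 21368 bp from the 5′ end.

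No EtOH library called 36 of the 56 sites (64.3%), beside 68.9% of all sites. However, 21 of these 36 had a weaker EtOH peak in the deposited lists. The remaining 15 of the 56 had none (26.8%, beside 34.7% of all sites). All 56 sites had called peaks in at least 2 TAM replicates of 1 protein or both, so their choice favors calls in TAM. At 55 of the 56 sites, the share of TAM libraries with a call was above that of EtOH libraries. The exception was a distal site over FBXL15, 28723 bp downstream of the 5′ end of NFKB2, which had calls in 3 EtOH and 2 TAM libraries and was named here after its values were seen. All 6 TAM libraries called 10 sites (17.9%, beside 14.3% of all sites), and no site was called in all 11 libraries. In TAM, 28 sites (50%, beside 42.8%) were confident for both proteins. S100A8-Flag alone had 10 (17.9%, beside 17.4% of all sites), and S100A9-Flag alone had 18 (32.1%, beside 39.5%). Without S100A8-Flag TAM replicate 1 the 28 sites became 18, and without S100A9-Flag TAM replicate 3 they became 17. Of the 18 sites of S100A9-Flag alone, 4 still had a weaker or called peak in every S100A8-Flag TAM library, and 5 of the 10 of S100A8-Flag alone had one in every S100A9-Flag TAM library. Where both proteins had a site, their summits lay a median of 39 bp apart, beside 33 bp over the genome.

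At the promoters, summits lay at -1036 to 104 bp relative to the nearest TSS of the gene, and 11 of 13 were upstream of it. The fold enrichment of a peak is the signal at its summit over the input of that library, as MACS2 gave it, and it is used below as a description that was not tested between libraries. At the first TSS of NFKB2 (chr10:104153483-104154671), called peaks had fold enrichments of 13.8 and 11.3 for S100A8-Flag and 19.5, 21.1, and 10.5 for S100A9-Flag in TAM, with 10.9 and 9.6 in 1 EtOH library of each protein. The remaining S100A8-Flag TAM library had a weaker peak of 5.48. The EtOH libraries without a call had weaker peaks of 6.86 for S100A8-Flag and of 6.26 and 6.3 for S100A9-Flag. Among the promoter sites of the 10 genes this one ranked highest. It was at the 92nd percentile of the fold enrichments of a library's called peaks, on average over the libraries that called it. No NF-κB match lay within 100 bp of the summit of this site, and the rest of the site was not searched. At NFKB2 the match was in an intronic site at a second TSS (chr10:104155262-104155544), called in 3 TAM libraries.

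NFKBIA had 2 promoter sites that differed in their EtOH calls. The site at the internal TSS (chr14:35872896-35873446, over a UTR) was called in both EtOH libraries of S100A8-Flag, with fold enrichments of 11.8 and 11, and in all TAM libraries, with 11.2, 9.44, and 7.82 for S100A8-Flag and 17.7, 10.6, and 9.92 for S100A9-Flag. S100A9-Flag in EtOH had only weaker peaks of 6.21, 6.44, and 5.02 there, so that the deposited lists hold a peak in all 11 libraries. The site at the first TSS (chr14:35873608-35874388), which holds the NF-κB match printed above, was called in 4 TAM libraries and in no EtOH library. The S100A8-Flag TAM libraries had 9.3, 7.39, and 7.15 at this site, whereas of S100A9-Flag replicate 2 alone was called, with 12.2. In EtOH, weaker peaks of 7.08 and 6.05 for S100A8-Flag and of 4.48 for S100A9-Flag replicate 3 were present there. S100A9-Flag TAM replicates 1 and 3 had weaker peaks of 3.18 and 3.17.

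At RELB, S100A8-Flag had calls in a larger share of EtOH than of TAM libraries. Its promoter site (chr19:45504379-45504651, intergenic) was called in both EtOH libraries of S100A8-Flag, with 8.07 and 8.26, and in 1 of 3 TAM libraries, with 11.5. S100A9-Flag had no EtOH peak of any strength there, and 7.97 and 17 in 2 called TAM libraries. The other TAM libraries had weaker peaks of 5.66, 3.93, and 5.36, so that a peak was present in all 6.

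The TNFAIP3 promoter site (chr6:138187550-138189014, over a UTR) was called in all TAM libraries, with 9.75, 8.48, and 13.6 for S100A8-Flag and 5.92, 11.9, and 7.67 for S100A9-Flag. In EtOH it was called in S100A9-Flag replicate 3, with 12.1, and the other 4 EtOH libraries had weaker peaks of 6.34, 7.79, 6.42, and 5.07. Thus, the A20 promoter had a deposited peak in every library, and the fold enrichments of the 2 treatments overlapped. The NFKBIZ site (chr3:101567860-101568573) lay over a UTR at -155 bp relative to a TSS within the gene. It was called in no EtOH library and in 5 TAM libraries, with 9.02 and 13.4 for S100A8-Flag and 14.4, 9.74, and 13.3 for S100A9-Flag, and weaker peaks were present in 3 EtOH libraries.

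The RELA site (chr11:65430425-65431119) was called with 9.86 and 8.54 for S100A8-Flag and 7.82 and 9.3 for S100A9-Flag in TAM, and with 9.04 in 1 EtOH library of S100A9-Flag. Weaker peaks there were of 6.33, 7.02, and 5.48 in EtOH and of 3.11 and 4.39 in TAM. The NFKB1 site (chr4:103422363-103422665, over a UTR) was called in 3 TAM libraries, with 6.81 for S100A8-Flag and 10.7 and 8.05 for S100A9-Flag. The BCL3 site (chr19:45250581-45251082) was called in 5 TAM libraries, with 7.34 and 6.24 for S100A8-Flag and 10.8, 8.11, and 10.5 for S100A9-Flag, and in no EtOH library. It had weaker peaks of 4.48, 6.78, and 4.84 in EtOH and of 3.64 in the remaining TAM library.

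REL had 2 adjacent promoter sites, each called in 3 TAM libraries and in no EtOH library. The upstream one had no EtOH peak of any strength. At the other, weaker peaks were of 6.21, 6.51, and 6.28 for S100A9-Flag in EtOH and of 5.55, 4.6, and 6.69 in TAM. The upstream one (chr2:61108172-61108522) was called with 8.05 and 7.13 for S100A8-Flag and 7.52 for S100A9-Flag, and the one over a UTR, which holds the NF-κB match (chr2:61108588-61109076), with 7.19 for S100A8-Flag and 12 and 14.5 for S100A9-Flag. The NFKBIE site (chr6:44233207-44233543, over a coding exon) was called with 7.16 in 1 S100A8-Flag library and with 11.1, 7.82, and 7.95 in the 3 S100A9-Flag libraries in TAM. Of the 13 promoter sites, 10 had a deposited peak in all 6 TAM libraries. Of the 8 without an EtOH call, 7 had a weaker EtOH peak.

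**Figure D4:**
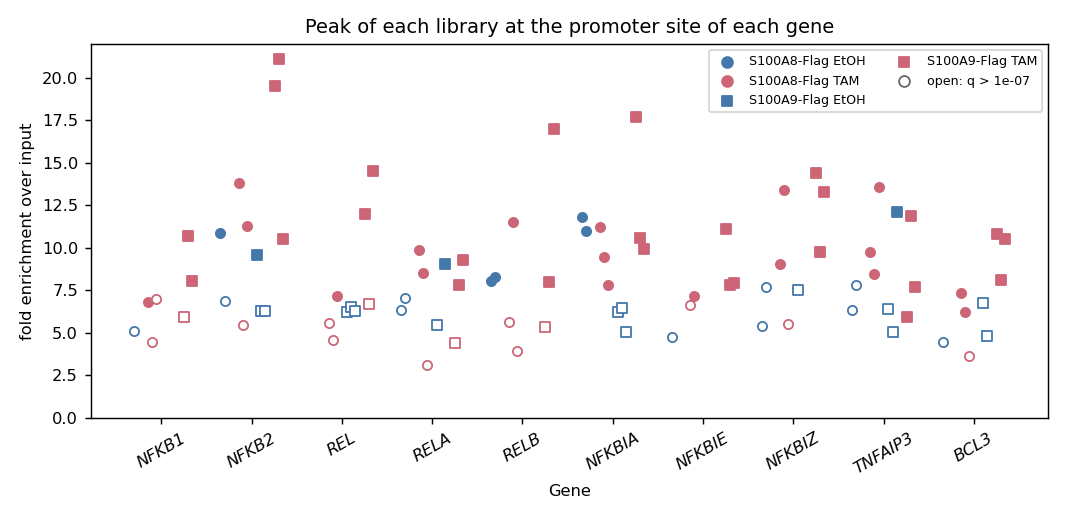
Fold enrichment over input of each library's peak at the promoter site called most often for each gene (circles, S100A8-Flag; squares, S100A9-Flag; blue, EtOH; red, TAM), with filled symbols for called peaks and open symbols for weaker deposited peaks. A library without a symbol has no peak there; NFKB2 has the highest value, 21.1, and RELB has 2 called S100A8-Flag EtOH peaks and no S100A9-Flag EtOH peak.

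Distal sites are given for each gene as the one called in most libraries. That of BCL3 is in an intron of the gene (chr19:45256396-45257002) and was called in 9 of 11 libraries, with 9.41 and 8.01 in EtOH against 11, 14.7, and 6.59 in TAM for S100A8-Flag. S100A9-Flag had 8.74 in 1 EtOH library and 16, 17.5, and 22.7 in TAM at this site. That of NFKB2 is over a coding exon (chr10:104159040-104159556) and had called peaks of 18.6 in S100A8-Flag EtOH replicate 2 and of 9.33, 9.27, and 10.5 in TAM for the same protein. S100A9-Flag had 9.61 in 1 EtOH library and 7.36 and 9.6 in 2 TAM libraries, so that an EtOH library had the highest value of all. The intronic site at PUS10 downstream of REL (chr2:61184655-61185201) was called in all 6 TAM libraries, with 8.95, 14.4, and 5.77 for S100A8-Flag and 9.55, 10.8, and 12.7 for S100A9-Flag. No EtOH library called it, and 1 had a weaker peak of 3.3.

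The intergenic site downstream of NFKBIA (chr14:35843417-35843998) was called in 5 TAM libraries, with 11.9, 7.88, and 7.7 for S100A8-Flag and 6.76 and 5.31 for S100A9-Flag. No EtOH library had a peak of any strength there. The intergenic site downstream of NFKBIE (chr6:44205029-44205516) was called in 5 TAM libraries and 1 EtOH library, but its nearest TSS is that of HSP90AB1. The intronic site of TNFAIP3 (chr6:138194373-138194679) was called in 3 TAM libraries and had no EtOH peak. The sites of NFKB1 (chr4:103549006-103549330), RELA (chr11:65420014-65420555), and NFKBIZ (chr3:101620930-101621247) were called in 2, 3, and 2 TAM libraries and in no EtOH library, and RELB had no distal site.

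Sequences within 100 bp of the summits were searched on both strands without mismatches for AP-1 (TGACTCA), ETS (CGGAAG), KLF/SP1 (CCCCGCCC), CREB (TGACGTCA), STAT (TTCNNNGAA), CEBP (TTGCNNAA), and the NF-κB and CTCF consensus. Matches of different motifs may overlap and each was counted. A match only describes the letters in a window and is not a binding site. The NF-κB consensus was present at 10 of the 56 sites (17.9%), beside 4.37% of all sites. It was found at 8 of the 13 sites in a gene's own promoter (61.5%), beside 4.79% of the 9443 promoter sites in the genome, but at 1 of 14 promoter sites of neighbors and at 1 of 29 distal sites (3.45%, beside 4.18% of all distal sites). The 8 promoter sites belong to 8 genes, with the nearest match at most 80 bp from the summit (median of 51 bp). The search itself limits these distances to 100 bp. Within 50 bp of the summit, the consensus was present at 4 of the 56 sites (7.14%), beside 2.27% of all sites. Counted without regard to S100A8/A9 sites, the consensus lay at most 250 bp before or 50 bp after a TSS in 9 of the 10 genes (90%) and in 13.4% of all 20098 genes. The genes had a median of 4 TSSs, against 3 for all genes.

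KLF/SP1 was present at 7 of the 13 own-promoter sites (53.8%, beside 24.5% of all promoter sites) and ETS at 2 (15.4%, beside 27%). At the 29 distal sites, KLF/SP1 was present at 6 (20.7%, beside 4.2% of all distal sites). AP-1 was present at 7 of the 29 distal sites (24.1%, beside 34.6% of all distal sites). These include the most often called distal sites of REL, NFKBIA, NFKBIE, and NFKBIZ, which are shown, with the match in capitals, because 4 of the 9 distal sites named above carry it.
REL, chr2:61184988-61185014, plus strand: cagcacagcaTGACTCAgtaggtttgg
NFKBIA, chr14:35843712-35843738, plus strand: ctcatagaggTGACTCAgcacttcatt
NFKBIE, chr6:44205311-44205337, minus strand: ggggccctgcTGACTCAcatttagcgg
NFKBIZ, chr3:101621022-101621048, plus strand: atttcctctcTGACTCAtgcataggag

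The sites of REL and NFKBIA among these were called in TAM libraries of both proteins and in no EtOH library, that of NFKBIE was called in 1 EtOH library, and that of NFKBIZ only for S100A9-Flag in TAM.

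**Figure D5:**
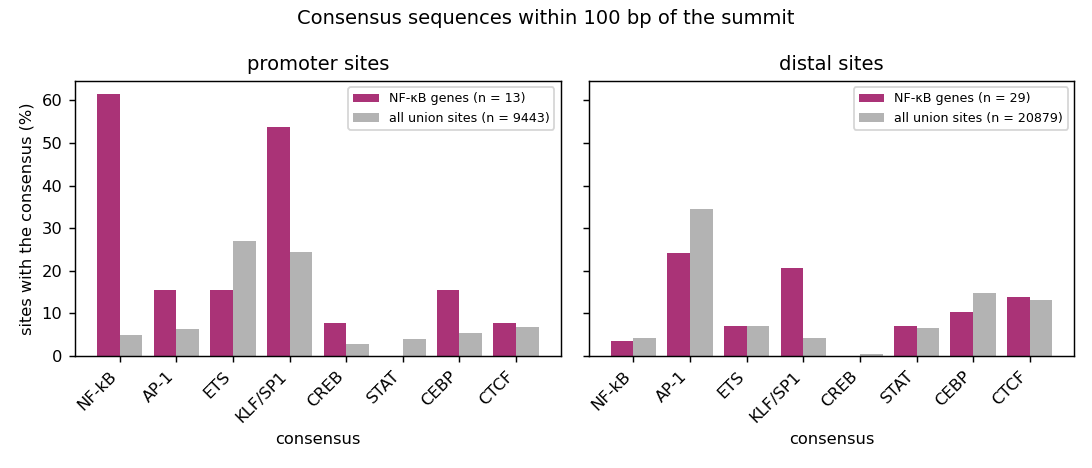
Share of sites, in percent, with each consensus within 100 bp of the summit, for promoter sites (left: 13 own-promoter sites of the 10 genes, purple, and all 9443, gray) and distal sites (right: 29 in the windows, purple, and all 20879, gray). The bar of NF-κB is at 61.5% against 4.79% for promoter sites and at 3.45% against 4.18% for distal sites.

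The wider pathway was described with 39 genes for receptors' adaptors, kinases, ubiquitin enzymes, and other regulators of NF-κB. Of these, 33 had more peaks in TAM at an adjusted p of at most 0.05 (exact permutation test over all genes) and 0 had fewer, beside 67.6% and 0 of all genes tested, with a median difference of log2(peaks + 1) of 1.6, between those of the 10 genes and of all genes. A promoter peak was found at 35 in at least 1 TAM library, beside 60.6% of all genes, and at 18 in at least 1 EtOH library, beside 29%. SHARPIN, a subunit of the linear ubiquitin ligase complex, had one in all 11 libraries. TRAF5, IRAK1, and IRAK3, an adaptor and 2 members of a kinase family of receptor complexes, had one in none. TRAF5 and IRAK1 were nonetheless called higher in TAM over the whole window, with differences of 0.97 and 1.79, so that their peaks lie outside the promoters as defined here, and IRAK3 did not pass (0.72, adjusted p = 0.0778, exact permutation test).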

How the data were processed

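The authors mapped ChIP-seq reads to hg19 (Bowtie2, unique alignments only), and MACS2 peaks were called by library against its own input, without pooling (versions are not given in the sources used here). The deposited lists give the fold enrichment of each peak, a ratio over input. They also hold the −log10 p and q values that the authors' MACS2 computed. Depth is unknown. Pol II data were not analysed here.

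Peaks on chromosomes 1 to 22 and X with −log10 q of at least 7 were assigned to protein-coding genes (GENCODE 44, GRCh37) by the summit. Peak numbers (pseudocount 1) were compared by exact permutation of libraries within each protein, two-sided by doubling the smaller tail, with Benjamini-Hochberg adjustment over all genes tested. The tests were tried on simulated data. Python 3.11.15, numpy 2.4.6, pandas 2.3.3, pysam 0.24.0, samtools 1.23.1, and matplotlib 3.10.9 were used. The 10 genes, the pathway list, and the motifs were chosen with earlier results of these data known. Named sites were every own-promoter site and, for each gene, the distal site called in most libraries (ties by mean percentile of fold enrichment). Pathway genes were named when a promoter peak was present in all libraries or in none. Some items that these rules select are not reported here. Replicate numbers were not used as pairs in the main tests: same-numbered EtOH and TAM libraries had correlations of -0.0145 to 0.00489 in their deviations from the group means. With so few libraries, these values cannot exclude that same-numbered libraries were prepared together.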

Additional observations from a re-analysis of the deposited data

How the results depend on the processing

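The rise of the peak number at the 10 genes held in direction and call when each library was left out (2.3 to 2.63 on the log2 scale), but not with equal numbers of peaks, where it was -0.33 over both proteins and -0.88 for S100A8-Flag; fewer TAM peaks enter by construction. With every deposited peak it was 1.4. The number of genes with a promoter peak rose by 5.75 to 6.58 with a library left out, by 2.58 with every deposited peak, by 2.33 at q of at most 1e-20, and by 0.0833 with equal numbers. The share of peaks was -0.43 with every deposited peak (p = 0.03) and -0.32 with genes assigned by TSS or body (p = 0.01, both exact permutation). It was -0.64 at 1e-10, -0.12 and -0.032 with windows of 10 and 100 kb, -0.012 with the nearest TSS, and -0.32 to -0.0989 with a library left out.

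With the replicate number as a block, the differences of 2.47 and 6.08 had p = 0.0625, the smallest that the block allows by exact permutation, and 0 of the 10 genes and 0 of all genes were called. The number of the 10 genes called (10) was 4 at q of at most 1e-10, 0 at 1e-20, 0 with equal numbers, 3 with 10 kb windows, 0 for shares, and 5 to 7 with a library left out. Of all genes (12262), 6887, 0, 0, 3646, and 0 were called in the same order, and 8348 to 9549 with a library left out. The difference between S100A9-Flag and S100A8-Flag in TAM (0.058) changed sign with 10 kb windows (-0.0783), with assignment by TSS or body (-0.0356), and with assignment to the nearest TSS (-0.0669, an alternative chosen after seeing the data), and ranged from -0.15 to 0.23 with a library left out. It was 0.2 with every deposited peak and 1.04 at 1e-20. The difference of the TAM effect between the proteins (0.91) was 0.46 with every deposited peak, 1.47 at 1e-10, and 1.54 at 1e-20, past the threshold in none of these.

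The 56 sites became 29 when every replicate was required, 105 with 1 replicate, 36 at 1e-10, 99 with every deposited peak, and 45 to 56 with a library left out. The 28 sites of both proteins became 10, 56, 17, and 60, and 17 to 28, with 18 without S100A8-Flag TAM replicate 1 and 17 without S100A9-Flag TAM replicate 3. The NF-κB consensus was at 4 sites within 50 bp. The cause of these changes was not tested.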
